A study of Mus musculus with 6 samples.

Results

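Tfcp2l1, Tbx3, Prdm14, Gbx2, Zfp42 and Tcl1 are 6 genes associated with the naive state of mouse embryonic stem (ES) cells. They were followed here through the first days of differentiation at every probe set of the array whose only gene symbol in the platform annotation was one of the 6. This gave 12 probe sets of 45037 tested, and 6 genes of 18193 with a symbol of their own. The arrays held E14TG2a cells, an established mouse ES cell line, so all values come from one genetic background. Of the 6 samples, 3 were undifferentiated cells, kept in leukaemia inhibitory factor (LIF, 1000 units per ml) and sorted as negative for the 5T4 antigen. The other 3 were differentiating cells, kept out of LIF for 3 days and then sorted as positive for 5T4, a surface glycoprotein that appears early in ES cell differentiation. Both groups were grown on gelatin, in a medium for which the methods name foetal calf serum and the labels name either that or serum replacement. LIF withdrawal and the 5T4 sort changed together and cannot be told apart.

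ES cells in the naive state resemble the epiblast before implantation and renew themselves as long as LIF keeps the transcription factor STAT3 active. Tfcp2l1 and Gbx2 are transcription factor genes induced by STAT3, and Tbx3 encodes a T-box factor linked mainly to the phosphatidylinositol 3-kinase arm of LIF signalling. Prdm14 encodes a PR domain zinc finger protein that represses fibroblast growth factor signalling and DNA methyltransferase genes, Zfp42 (Rex1) is a zinc finger gene long used as a marker of undifferentiated cells, and Tcl1 encodes a cofactor of the kinase AKT rather than a transcription factor. On leaving the naive state, cells pass towards a primed state that resembles the epiblast after implantation and expresses genes such as Fgf5.

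The stretches of promoter that lie just before the transcription start are shown because all 4 members with an entry in the RefSeq promoter table (build GRCm38.p6) were lower on every differentiating than on every undifferentiated array; Tbx3 and Prdm14 have no entry there. Capitals mark matches to 6 motifs searched on both strands in the 250 bases before each start. The Zfp42 window is chr8:43307010-43307259 (minus strand) and covers all 250 bases. The Gbx2 window is chr1:89931177-89931326 (minus strand), the Tcl1 window chr12:105222738-105222887 (minus strand) and the Tfcp2l1 window chr1:118627795-118627944 (plus strand), each covering the 150 bases before the start. All are written 5′ to 3′ on the strand of the gene.
Zfp42: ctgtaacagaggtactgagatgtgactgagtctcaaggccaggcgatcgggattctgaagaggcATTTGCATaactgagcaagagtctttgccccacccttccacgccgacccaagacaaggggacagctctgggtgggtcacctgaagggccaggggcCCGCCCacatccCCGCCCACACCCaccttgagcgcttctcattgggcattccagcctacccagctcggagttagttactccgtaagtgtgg
Gbx2: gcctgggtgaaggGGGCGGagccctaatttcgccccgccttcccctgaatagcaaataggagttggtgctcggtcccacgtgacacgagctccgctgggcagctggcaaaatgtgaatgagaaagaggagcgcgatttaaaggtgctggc
Tcl1: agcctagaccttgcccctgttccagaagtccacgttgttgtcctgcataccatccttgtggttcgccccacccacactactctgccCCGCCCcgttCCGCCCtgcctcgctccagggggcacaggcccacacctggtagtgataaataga
Tfcp2l1: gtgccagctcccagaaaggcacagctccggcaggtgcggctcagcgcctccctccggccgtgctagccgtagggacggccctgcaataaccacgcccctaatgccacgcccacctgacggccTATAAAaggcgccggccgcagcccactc

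The octamer ATGCAAAT, the motif of Oct4, stood in the Zfp42 promoter on the opposite strand, 186 to 179 bases before the start, and in none of the other 3. It is present in 1.6% of all 32851 promoters of the table. The Zfp42 promoter also held a CACCC box (CCACACCC, 3.2% of promoters), a motif of Krüppel-like factors, 75 to 68 bases before the start. GC boxes (GGGCGG, 32.7% of promoters) stood in Zfp42, Gbx2 and Tcl1, and the one of Zfp42 nearest the start overlapped the CACCC box. A TATA box (TATAAA, 12.4% of promoters) lay 28 to 23 bases before the start of Tfcp2l1. None of the 4 held the STAT motif TTCNNNGAA (7.02% of promoters) or the Esrrb motif TCAAGGTCA (0.387%). These are matches of letters, not measured binding sites.

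At their brightest probe set all 6 genes gave lower values on the differentiating arrays. The brightest probe set of a gene is the one of highest mean over the 6 arrays. The difference ran from 5.04-fold (Tfcp2l1) to 12.1-fold (Tcl1). At each of these probe sets every differentiating array lay below every undifferentiated array. The log2 fold change was -2 or below for all 6 genes, as it was for 83 of the 18193 genes (0.456%). The median over the 6 was -3.10 against 0.02 over all genes. The methods do not set the cutoff of -2, and the 6 genes were chosen with earlier results of these data known. These values describe the 6 genes and do not test them as a set. A probe set was called lower at an adjusted p under 0.1 (limma, Benjamini-Hochberg adjustment over all 45037 probe sets) with a log2 fold change of -1 or below. By this rule 3 of the 6 genes were called lower, Tfcp2l1, Tbx3 and Prdm14, where 0.879% of all genes were. Gbx2, Zfp42 and Tcl1 had folds of similar size and did not pass. In sorted bulk samples, fewer cells that express a gene and less RNA per cell cannot be told apart. Neither labels nor methods state that the replicates came from separate cultures, so p-values measure only the spread between these samples, which may be technical.

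**Figure D1:**
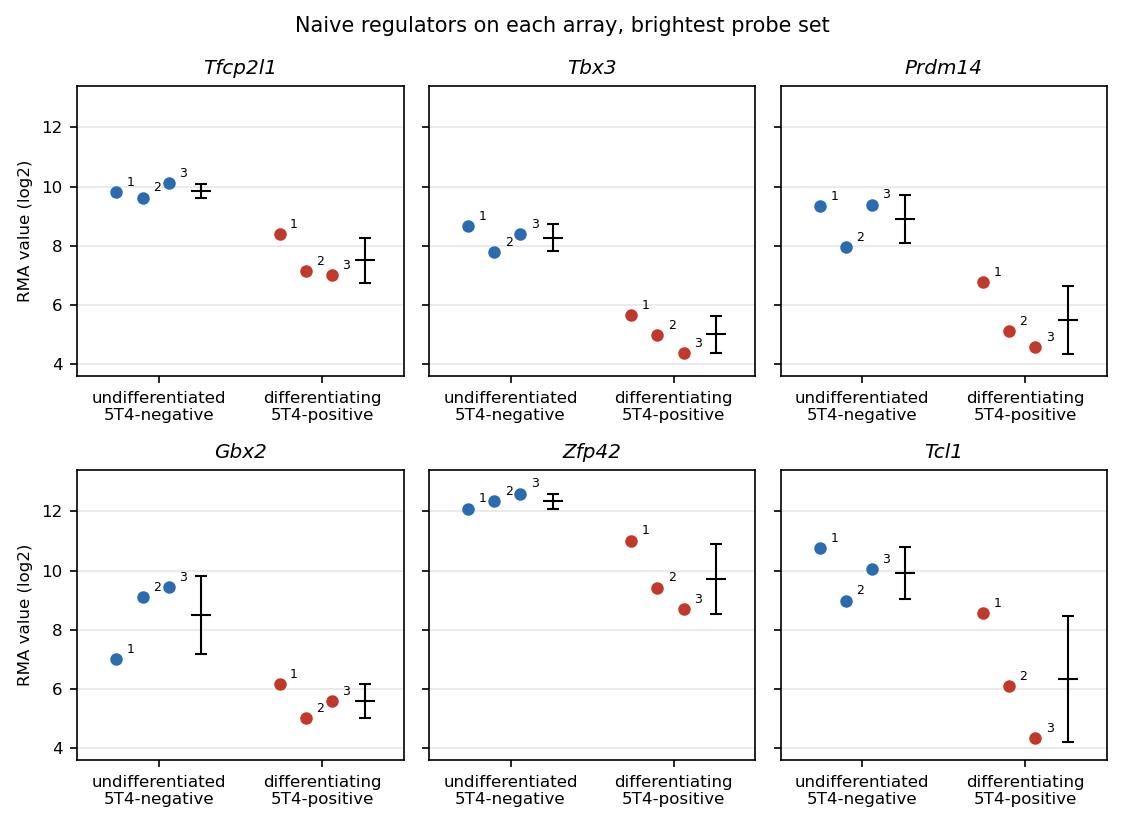
RMA value (log2) of each gene at its brightest probe set on each of the 6 arrays; points are arrays numbered by replicate, undifferentiated in blue and differentiating in red, and bars give the mean ± SD (n = 3). No panel shows an overlap between groups, and differentiating replicate 1 is the highest red point in all 6.

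Among the STAT3-induced factors, Tfcp2l1, a member of the CP2 and grainyhead family, measured 9.81, 9.63 and 10.12 (log2) in undifferentiated replicates 1 to 3 and 8.39, 7.15 and 7.01 in differentiating replicates 1 to 3. The undifferentiated arrays lay close together and the differentiating ones spread more, with replicate 1 well above the other two, yet 1.24 log2 units still separated the groups. The log2 fold change was -2.33 (standard error 0.36, 95% interval -3.19 to -1.47, adjusted p = 0.0677 from limma). On the scale of all probe sets of an array, this probe set moved from the 89.9th to 92.5th percentile down to the 67.5th to 82.1st.

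Gbx2, a homeobox gene, measured 7.01, 9.09 and 9.43 in the undifferentiated and 6.16, 5.03 and 5.59 in the differentiating replicates. Here it was the undifferentiated group that spread, because replicate 1 lay more than 2 log2 units below the other two. The nearest arrays of the groups were 0.85 log2 units apart. The log2 fold change of -2.92 (standard error 0.64, 95% interval -4.42 to -1.42) corresponds to 7.57-fold and missed the threshold (adjusted p = 0.118 from limma).

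Tbx3 showed the clearest separation. It measured 8.67, 7.78 and 8.39 in undifferentiated replicates and 5.65, 4.98 and 4.38 in differentiating replicates, so that 2.13 log2 units lay between the groups. The log2 fold change was -3.27 (standard error 0.36, 95% interval -4.12 to -2.43), or 9.68-fold lower, with an adjusted p of 0.04 from limma.

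Prdm14 measured 9.34, 7.96 and 9.39 in undifferentiated and 6.77, 5.11 and 4.57 in differentiating replicates. Undifferentiated replicate 2 and differentiating replicate 1 were the closest pair and differed by 1.19 log2 units. The gene fell by 3.42 on the log2 scale (standard error 0.62, 95% interval -4.89 to -1.94, adjusted p = 0.0897 from limma), which is 10.7-fold with an interval of 3.83 to 29.8.

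Zfp42 measured 12.10, 12.35 and 12.60 in undifferentiated and 11.01, 9.43 and 8.69 in differentiating replicates. The undifferentiated arrays were tightly grouped and the differentiating ones ranged over more than 2 log2 units. Its probe set stayed at the 83.2nd percentile of the array or above in all differentiating samples, so a strong signal was still present on the arrays with its lowest values. The log2 fold change was -2.64 (standard error 0.54, 95% interval -3.92 to -1.35, adjusted p = 0.106 from limma), or 6.23-fold.

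Tcl1 had the widest range of the 6 within the differentiating group. It measured 10.75, 8.99 and 10.04 in undifferentiated replicates, and 8.56, 6.10 and 4.33 in differentiating replicates. Against the undifferentiated mean this is 2.59-fold, 14.1-fold and 48.4-fold lower for the 3 differentiating arrays. The groups came within 0.43 log2 units of each other, between differentiating replicate 1 and undifferentiated replicate 2. The mean change of -3.60 was the largest of the 6 and also the least precise (standard error 1.01, 95% interval -6.00 to -1.20), and missed the threshold (adjusted p = 0.193 from limma).

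Tfcp2l1 and Tbx3 were the only members with more than 1 probe set, and their probe sets did not all show the same change. Over all 12 probe sets, 4 were called lower, where 0.613% of all probe sets were. On 10 of the 12, every differentiating array lay below every undifferentiated one, where 10.3% of all probe sets showed this. The exact permutation test gave p = 0.1 for each of those 10, the smallest value that 3 arrays against 3 allow. Groups that do not overlap always give this value here, so it adds nothing to the count of 10.

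For Tbx3 a second probe set, 1437479_x_at, was 11.4-fold lower (log2 fold change -3.51, adjusted p = 0.04 from limma). Affymetrix uses the suffix x for probe sets with probes that can also match other transcripts. The 6 values of 1437479_x_at correlated with those of the brightest probe set, 1448029_at (Pearson r = 0.993). This correlation includes the difference between the groups, so it says little about what the probes match. The dimmer 1445757_at and 1439567_at had log2 fold changes of -0.85 and -0.46 (adjusted p = 0.222 and 0.224). The groups overlapped at 1444594_at, whose mean lay at the 16.6th percentile of the array, and the log2 fold change was -0.01 (adjusted p = 0.982).

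For Tfcp2l1 the call rests on 1418091_at alone. The probe sets 1460715_x_at and 1460714_at lay at the 7.2nd and 5.2nd percentile by their means, with all 6 values between 3.13 and 3.67 and between 3.17 and 3.41. Their log2 fold changes were -0.33 (adjusted p = 0.294) and 0.05 (adjusted p = 0.888). Without detection calls in the deposited table, signals this low may be background, and a change of the transcript may go unseen there.

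**Figure D2:**
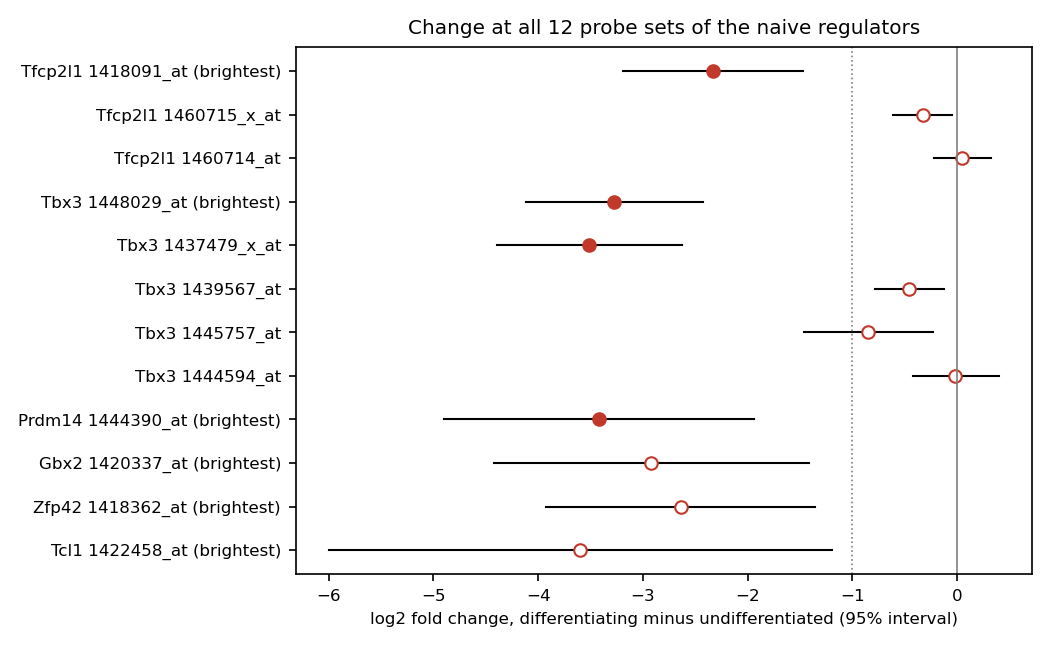
Log2 fold change with its 95% interval from limma at all 12 probe sets of the 6 genes, differentiating minus undifferentiated; filled points were called lower, open points were not, and the dotted line marks a change of -1. The 4 filled points are 1 probe set each of Tfcp2l1 and Prdm14 and 2 of Tbx3, and the intervals of Gbx2, Zfp42 and Tcl1 lie wholly below -1 although these did not pass. The intervals are not adjusted for the number of probe sets. Limma's treat, which tests against a log2 fold change of 1, called none of the 6 genes.

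No difference in change between 2 of the 6 genes passed a test. The change of Tbx3 exceeded that of Tfcp2l1 by 0.94 log2 units (standard error 0.28), and of the 15 pairs this was the only one whose per-array difference separated the groups (exact permutation p = 0.1, adjusted p = 0.857 over 15 pairs). The widest difference in mean change, 1.26 log2 units between Tfcp2l1 and Tcl1, had a standard error of 0.95 (exact permutation p = 0.3). With 3 arrays a group no pair could reach a smaller p than 0.1, so the test does not show that the genes changed alike.

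What all 6 genes shared was the array of highest value in the differentiating group. Differentiating replicate 1 kept the highest level of its group for all 6 genes, and differentiating replicate 3 had the lowest for 5, Gbx2 being the exception. Among undifferentiated samples replicate 2 was lowest for Tfcp2l1, Tbx3, Prdm14 and Tcl1, and replicate 1 was lowest for Gbx2 and Zfp42. The first of these patterns was not particular to the 6 genes. Of the 695 probe sets with a log2 fold change of -1 or below, 69.4% had differentiating replicate 1 highest of its group, against 47.6% of all probe sets. For the other patterns the share over all probe sets was not counted.

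Tpbg, which encodes 5T4, the antigen used for the sort, ran opposite to 5 of the 6 genes within the differentiating group. It measured 6.71, 7.52 and 7.97 in differentiating replicates 1 to 3, so the array with the most naive regulator signal had the least Tpbg signal of its group. In undifferentiated replicates it measured 5.94, 6.76 and 5.68, and replicate 2, with the lowest Tfcp2l1, Tbx3, Prdm14 and Tcl1, had the most and overlapped the differentiating range (log2 fold change 1.27, adjusted p = 0.22 from limma). The same undifferentiated replicate was also high in the simple epithelial keratin genes Krt8 (12.55, against 8.33 and 9.64 in the other two) and Krt18 (12.66, against 8.94 and 9.89), both between 11.01 and 12.49 on the differentiating arrays. Genes of the primed state went both ways in undifferentiated replicate 2. Otx2 (6.93, against 8.44 and 9.06 in replicates 1 and 3) and Fgf5 (5.09, against 5.44 and 5.30) were lowest of the group there. Pou3f1 (10.14, against 7.97 and 9.46) and Cdh2 (8.06, against 6.44 and 6.75) were highest. The part of these differences between arrays in the results was not tested.

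The number of regulators that passed depended on single arrays. Without differentiating replicate 1, all but Gbx2 were called lower, with Zfp42 9.79-fold lower (adjusted p = 0.027), Prdm14 16.7-fold (adjusted p = 0.0442) and Tcl1 26.2-fold (adjusted p = 0.0684). Without undifferentiated replicate 1, Gbx2 was 12.8-fold lower and called (adjusted p = 0.0259), while Prdm14 no longer passed (adjusted p = 0.12). Without undifferentiated replicate 2 the same 3 genes were called as with all arrays. When replicate 2 or 3 of the differentiating group or replicate 3 of the undifferentiated group was left out, none of the 6 was called, with adjusted p of 0.158 to 0.509 from limma. All 6 still had an unadjusted p under 0.05 in each of these fits. Without differentiating replicate 3 the fold of Tcl1 was 6.05. In all 6 fits every gene remained lower in differentiating cells.

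**Figure D3:**
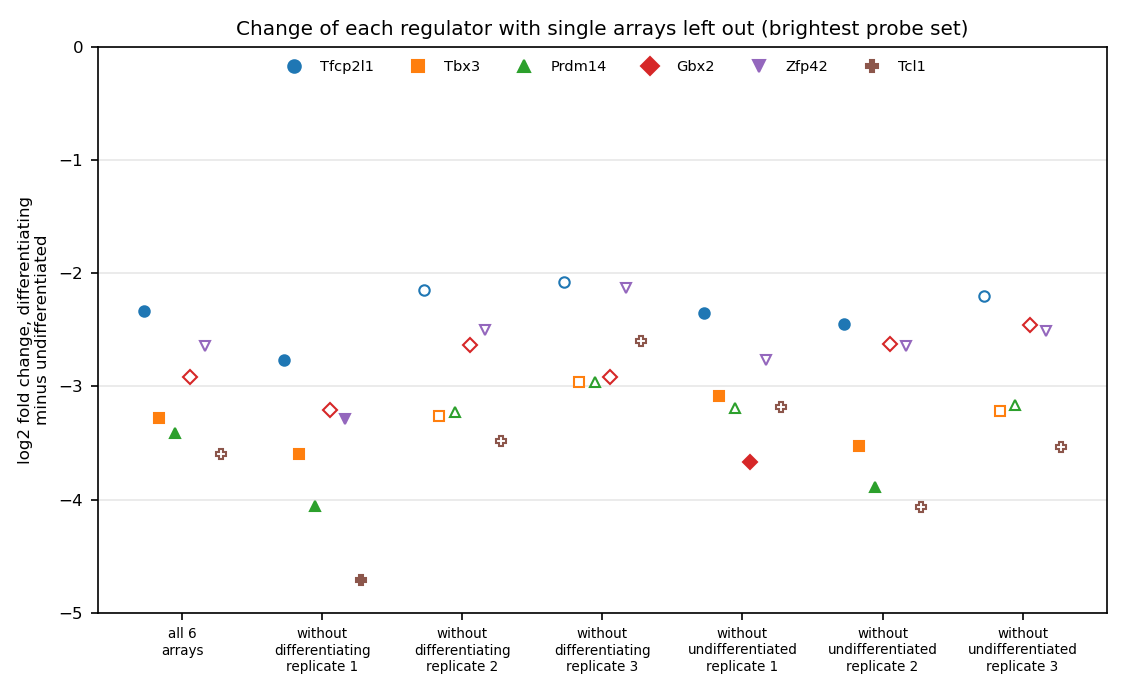
Log2 fold change of each gene at its brightest probe set, differentiating minus undifferentiated, with all 6 arrays and with each array left out in turn; filled symbols were called lower. All changes lie below -2, and the number of filled symbols runs from 0 to 5.

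The other genes of the naive network, from a list of 17 that leaves out the 6, all had negative log2 fold changes, with a median of -1.37. Of the 17, 4 passed as lower (adjusted p under 0.1 at the brightest probe set, with no fold threshold, which 1.45% of all genes did), 0 as higher, and 13 did not pass. Klf4, a Krüppel-like factor gene and STAT3 target, fell by 4.20 on the log2 scale (adjusted p = 0.0669). Dppa2 fell by 1.88 (adjusted p = 0.0927), and the core factor genes Sox2 and Pou5f1 (Oct4) fell by 0.96 and 0.69. Among those that did not pass at the brightest probe set, Esrrb (-2.91, adjusted p = 0.0592), Tet2 (-2.63, adjusted p = 0.0893) and Fgf4 (-1.47, adjusted p = 0.0949) passed as lower at another one. In differentiating cells Pou5f1 stood at 11.46 ± 0.07 (log2, SD, n = 3), against 12.14 ± 0.15 (SD, n = 3) with LIF. Whether it changed less than the 6 regulators was not tested. Lists of this kind overlap in purpose with the choice of the 6 genes and are not independent of it.

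Of 14 genes of the LIF-STAT3 pathway, 3 passed as lower, 0 as higher, and 11 did not pass (median -0.66). The feedback inhibitor gene Socs3 fell by 3.42 (adjusted p = 0.0303), Bcl3 by 2.18 (adjusted p = 0.0428) and the LIF receptor gene Lifr by 2.07 (adjusted p = 0.0242). The kinase gene Pim1 passed as lower at a dimmer probe set only (-0.55, adjusted p = 0.0987). Of 14 primed epiblast genes 12 were measured, and 2 of these passed as higher, where 0.797% of all genes did. They were the growth factor gene Fgf5 (1.92, adjusted p = 0.0734) and the zinc finger gene Zic2 (0.91, adjusted p = 0.0897). At another probe set Fgf5 was at 3.50 (adjusted p = 0.0468 from limma). The median of the 12 was 1.05, with 10 above 0. The DNA methyltransferase genes Dnmt3a (0.88, adjusted p = 0.0897) and Dnmt3b (1.33, adjusted p = 0.0931) passed as higher at a dimmer probe set; at its brightest Dnmt3a was at -0.33 (adjusted p = 0.584).

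Among the structural relatives of the 6 genes, Grhl1 was the only one that passed. This grainyhead-like gene, 1 of 5 measured relatives of Tfcp2l1, fell by 0.59 log2 units (adjusted p = 0.0854). The widest change among the others was that of Grhl3 (-2.51, adjusted p = 0.134). All 14 measured T-box genes other than Tbx3 lay between -0.20 and 0.31, and none passed; 11 of the 14 lay below the median signal of all probe sets, where a change may go unseen. None of 11 other Prdm genes passed, and the widest changes were those of Mecom (0.63) and Prdm16 (-0.57). Gbx1, the only relative of Gbx2, differed by 0.06 log2 units (adjusted p = 0.908). Yy1, whose zinc fingers resemble those of Zfp42, differed by 0.15 log2 units, and the groups overlapped. None of 4 measured relatives of Tcl1 passed, and all were positive, with Tcl1b3 at 0.40 (adjusted p = 0.329).

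**Figure D4:**
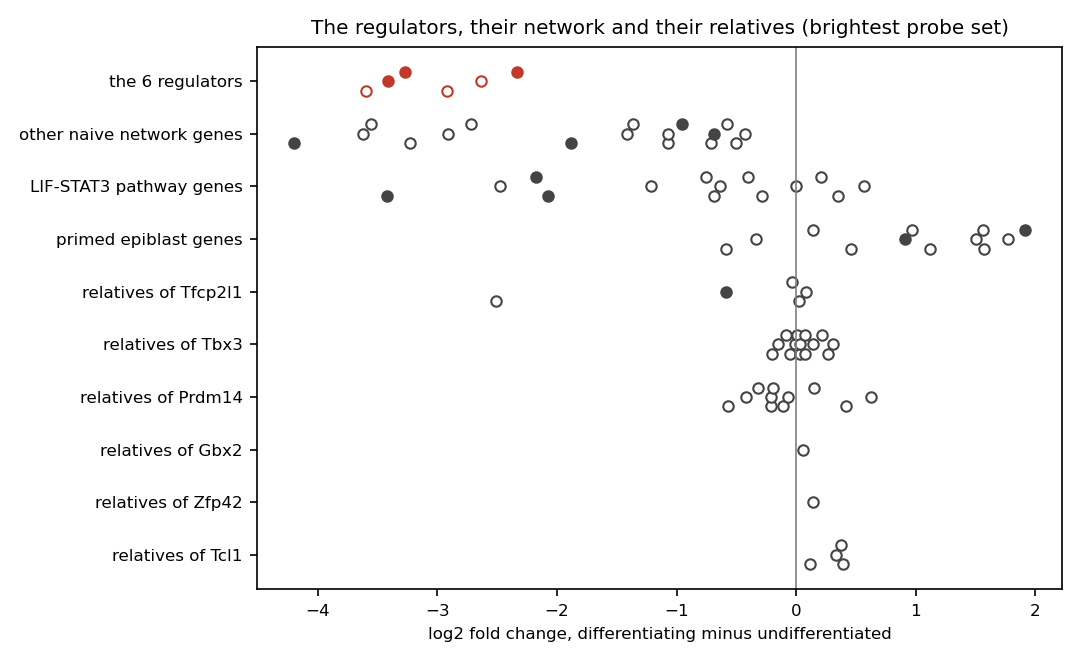
Log2 fold change at the brightest probe set, differentiating minus undifferentiated, for the 6 regulators (red) and for the genes of the naive network, of LIF-STAT3 signalling, of the primed epiblast and of each regulator's family (grey); each point is a gene, and filled points passed at an adjusted p under 0.1. The 6 regulators lie between -3.60 and -2.33, whereas the T-box genes lie between -0.20 and 0.31.

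Outside the 6 themselves, the genes whose pattern over the 6 arrays was most like that of each member were found by the root mean square (RMS) difference in log2 value after each pattern was centred on its mean. The 6 points include the difference between the groups, so any gene with a similar fold change scores well. For Zfp42 these were Tet2, which encodes an enzyme that oxidises 5-methylcytosine (RMS difference 0.148), the F-box gene Fbxo15 (0.191) and the nuclear receptor gene Nr5a2 (0.25). Next to Tfcp2l1 were Tcea3 (0.179), Aard (0.18) and Zfp296 (0.188). Tbx3 was nearest to Gna14 (0.233), Cnpy1 (0.283) and Lrrc34 (0.294). For Prdm14 they were Lrrc34 (0.34), AU018091 (0.423) and the orphan nuclear receptor gene Esrrb (0.439), with Tbx3, itself 1 of the 6, at 0.406. For Tcl1 they were Esrrb (0.331), Klf2 (0.348) and Morc1 (0.39). Gbx2 stood furthest from the other members, with an RMS difference of 0.828 to the nearest of them, Tfcp2l1, and its own nearest genes were Ntn1 (0.414), Accsl (0.427) and Abca1 (0.456). Among the 6, Tfcp2l1 and Zfp42 were the closest pair (0.341).

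The labelled cell type was checked against marker lists. The mean log2 value of 9 ES cell markers was 11.2 to 11.5 on undifferentiated and 10.9 to 11.1 on differentiating arrays, and 2 of the 9, Pou5f1 and Sox2, passed as lower. Of the primitive endoderm, mesoderm, fibroblast, and blood and endothelial markers measured (8, 6, 8 and 6), none passed at the brightest probe set; Dab2 passed as higher at another (1.30, adjusted p = 0.0937). Among the widest changes were those of Dab2 (1.96), Fgf8 (1.73), Col1a2 (1.38) and Pecam1 (-1.93). Pecam1 measured 8.67, 7.56 and 8.55 on the undifferentiated arrays. There the other measured blood and endothelial markers had means of 3.485 to 4.591. Of 5 neuroectoderm markers Zfp521 alone passed as higher (2.17, adjusted p = 0.0887), and of 8 trophectoderm markers Tfap2c alone passed as lower (-2.84, adjusted p = 0.0818), a gene that ES cells also express. The mean of the 8 primitive endoderm markers was 5.02 to 5.40 on undifferentiated and 5.51 to 5.59 on differentiating arrays, and that of the 8 fibroblast markers 5.21 to 5.77 and 5.57 to 6.11. Their part in the lower values of the 6 regulators was not tested.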

How the data were processed

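Expression was measured on 6 Affymetrix arrays, 3 per group. The authors ran RMA from the affy library of Bioconductor (version not given in the sources used here). They deposited log2 values per probe set, which are background corrected and quantile normalized. These values were used without further transformation. Array medians lay between 5.54 and 5.65. The quartiles of differentiating replicate 1 were 4.261 and 7.629, closer together than on the other arrays (4.07 to 4.095 and 7.764 to 7.795). No measure of depth applies to arrays, and their number limits the precision.

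The 64 array controls among the 45101 probe sets were not tested. In the platform annotation 34945 of the rest carry 1 symbol, 932 several and 9160 none. Groups were compared by lmFit and eBayes of limma 3.58.1 under R 4.3.3, where eBayes gave 2.93 prior degrees of freedom. The thresholds are those of the methods, a log2 fold change of 1 and an adjusted p under 0.1. Single probe sets and pairs of genes were also compared with a two-sided exact permutation test. The limma fit with the main settings was checked on simulated data, and the other steps were not.

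The 6 genes, the 19 gene lists and the tests were chosen with earlier results of these data known. From each list up to 4 passing genes of smallest adjusted p are named, or, in a list where none passed, up to 2 with the widest change, and for each member the 3 genes of most similar pattern. Tpbg, Krt8, Krt18, Otx2, Pou3f1, Cdh2, Col1a2, Dab2, Fgf8, Pecam1, Grhl3, Gbx1 and Yy1 are named for the values they carry beside a result, whether or not that rule takes them. Genes that pass only at a probe set other than the brightest are named with the value there. The alternatives changed the normalization (median centring, or quantile normalization again), the probe sets (dim ones dropped, controls retained, or a gene's probe sets averaged), the model (replicate block, array weights, or a robust variance with a trend), the thresholds, or the arrays, with each omitted once. Leaving out both replicate 1 arrays was added after seeing the data. Promoter sequences and starts are from RefSeq (GRCm38.p6); the array values name no build.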

Additional observations from a re-analysis of the deposited data

How the results depend on the processing

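At the brightest probe sets of the 6 genes, all 84 values under 14 alternatives kept the main direction. Of these, 60 kept their side of the threshold, 10 no longer passed and 14 newly passed. These 14 alternatives changed the normalization, the probe sets tested, the model or the arrays. Limma's treat, the other thresholds and the mean of a gene's probe sets are not in this tally. Probe sets called lower numbered 276 of 45037 with the main settings, 742 with array weights, 687 without both replicate 1 arrays (chosen after seeing the data), 462 with no fold threshold, 77 at an adjusted p under 0.05 and 1 with limma's treat, and 0 to 494 with each array left out in turn. Of the 12 member probe sets 4 were called with the main settings, 8 with array weights or without both replicate 1 arrays, 6 without probe sets below the median signal or with a trended robust variance, 2 at an adjusted p under 0.05, 0 with treat, and 0 to 6 with each array left out. Of the 6 genes 3 were called with the main settings, 6 with array weights or without both replicate 1 arrays, 5 without probe sets below the median signal or with a trended robust variance, 4 with median centring or the mean of a gene's probe sets, 1 at an adjusted p under 0.05, 0 with treat, and 0 to 5 with each array left out. Where limma called 0 member probe sets, 7 to 9 had an unadjusted p under 0.05. The arrays whose omission left 0 genes called were differentiating replicates 2 and 3 and undifferentiated replicate 3. At dim probe sets with no change, the sign turned with single arrays left out: Tfcp2l1 1460714_at ranged from -0.004 to 0.094 and Tbx3 1444594_at from -0.187 to 0.111 (log2 fold change). The methods name no pairing of samples by replicate number. Deviations from the group means correlated at 0.205, -0.11 and 0.115 between same-numbered arrays, and at -0.315 to 0.316 between the others. With 3 arrays a group this cannot decide whether the numbers pair the samples. With a replicate block 312 probe sets, 4 member probe sets and 3 genes were called. The cause of the differences between settings was not tested. Limma's array weights were lowest for differentiating replicate 1 (0.298) and undifferentiated replicate 1 (0.346). No detection calls are used, which limits statements on the dim probe sets.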

Other observations

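Partners and described targets of Prdm14 and of Tcl1 were measured on the same arrays. Of 9 genes tied to Prdm14, none passed at the brightest probe set (limma, adjusted p under 0.1) and the median log2 fold change was -0.45. The widest changes were those of Tet2 (-2.72, adjusted p = 0.114) and Dnmt3l (-2.29, adjusted p = 0.108), a cofactor gene of the de novo DNA methyltransferases. Dnmt3b, one of those methyltransferase genes, differed by 0.97 log2 units (adjusted p = 0.132) without overlap between groups. At another, dimmer probe set 4 of the 9 genes passed, Dnmt3b (1.33, adjusted p = 0.0931) and Dnmt3a (0.88, adjusted p = 0.0897) as higher, and Tet1 (-1.95, adjusted p = 0.0873) and Tet2 (-2.63, adjusted p = 0.0893) as lower. These genes have up to 5 probe sets each. The share of all genes that pass at any of their probe sets was not counted, so the 4 have no like share beside them. Dnmt3a was at -0.33 (adjusted p = 0.584) at its brightest. Of 6 measured AKT pathway partners of Tcl1, none passed at the brightest probe set and the median was 0.32, with Gsk3b at 0.62 and the phosphatidylinositol 3-kinase subunit gene Pik3ca at 0.61, each with overlapping groups. Akt2 (-0.71, adjusted p = 0.0806) and Pdpk1 (-0.89, adjusted p = 0.0887), which encodes a kinase that activates AKT, passed as lower at a dimmer probe set, and at their brightest they were at -0.40 and -0.46.

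Of 7 markers of 2-cell-like cells, a rare state in ES cell cultures, 2 were measured. Tcstv3 had a log2 fold change of -0.77 and Tcstv1 one of -0.48, and neither passed. Their mean log2 value was 3.56 to 4.45 on undifferentiated and 3.15 to 3.45 on differentiating arrays.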
